A study of Homo sapiens with 8 samples.

Results

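Immune checkpoint ligands are surface or secreted proteins that tumour cells can present to lymphocytes and macrophages. The 10 genes described here are PDCD1LG2, CD274, CD80, CD86, ICOSLG, CD276, VTCN1, HHLA2, SECTM1 and CD47, chosen by name and matched to probe sets that carry 1 of these symbols alone. Each matched exactly 1 probe set, so 10 of 18417 tested genes were compared between suspended and attached BT549 cells. BT549 is an established human triple-negative breast cancer line. Suspended cultures (4 arrays) were held for 24 h on plates coated with poly-HEMA, to which cells do not attach, and attached cultures (4 arrays) grew on normal tissue culture plates. All were kept in RPMI with 10% serum and insulin. For attached cultures one label gives 24 h and another 48 h; if the longer time holds, culture time and attachment cannot be told apart. The series calls the 4 samples of each group biological replicates, and all come from 1 cell line, with no T cells or macrophages in the labelled cultures.

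Most of these ligands belong to the B7 family of immunoglobulin-type membrane proteins. A ligand of this family binds a receptor on a T cell and either adds to the signal from the antigen receptor, as CD80 and CD86 do through CD28, or dampens it, as PD-L1 and PD-L2 do through PD-1. SECTM1 lies outside the family and is a ligand of CD7 on T and NK cells, and CD47 is a "do not eat me" signal read by SIRP alpha on macrophages. In tumour cells, interferon gamma from lymphocytes is a well-known inducer of PD-L1.

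Values are log2 signals as deposited, and differences are suspended minus attached. A gene was called when limma's p-value, adjusted by the Benjamini-Hochberg method over all 18417 genes, was under 0.05. By this rule 20.6% of all tested genes were called, 10.4% higher and 10.2% lower in suspension. Once each array was centred on its median these shares became 7.28% and 13.4%. Signals of the 4 suspended and 4 attached arrays did not overlap for 24.8% of genes. That centring used the medians of the 18417 genes, and it moved the median difference over all genes from 0.024 to −0.022. Over all 33297 probe sets, array medians were 6.03 to 6.07 in suspended and 6.02 to 6.06 in attached cultures. The number of arrays limits the precision. Without a background measure, a fold here is a ratio of signals, and a mean signal under 5.28, the 25th percentile of gene means, is treated as low. Since RNA came from whole cultures, fewer expressing cells and less RNA per cell cannot be told apart. The mesenchymal marker VIM averaged 11.7 in both groups. The oestrogen and progesterone receptor genes ESR1 and PGR were low in both (means of 5.11 and 4.31 suspended, 5.05 and 4.19 attached). ERBB2, the HER2 gene, was not low, with means of 7.525 suspended and 7.48 attached. Of 9 epithelial markers 2 were low, CDH1 among them (4.26 suspended, 4.19 attached), whereas KRT18 averaged 8.13 suspended and 8.16 attached. PTPRC, the pan-leukocyte gene, averaged 3.94 in both groups. Of 19 leukocyte markers, with list means of 5.09 to 5.22 suspended and 5.06 to 5.16 attached, CD68, a lysosomal protein gene of macrophages and other cells, fell by 0.39. CD14 differed by 0.22 (limma adjusted p = 0.0467), a call kept in only 1 of 8 refits (without suspended replicate 2, where 3 leukocyte markers were called higher). Of 10 mesenchymal markers 5 rose, among them SNAI2 by 1.23 and SPARC by 0.37, and 2 fell, AXL by 1.04 and CDH2 by 0.38. Without attached replicate 1, or without attached replicate 3, only 3 of them were called higher. Of 9 epithelial markers and 3 breast cancer receptor genes, limma called 0 and 0, and 0 and 0 had an unadjusted p under 0.05. The part of these shifts in the results below was not tested.

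Of the 10 ligand genes, 4 were called, against 20.6% of all genes. SECTM1 and CD276 rose, and PDCD1LG2 and CD274 fell. The same 4 genes were those whose suspended and attached arrays did not overlap, against 24.8% of all genes. VTCN1, ICOSLG, HHLA2, CD80, CD86 and CD47 were not called. The differences ran from −1.13 to 1.45, with a median of 0.06 over the 10 ligands and 0.02 over all genes.

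**Figure D1:**
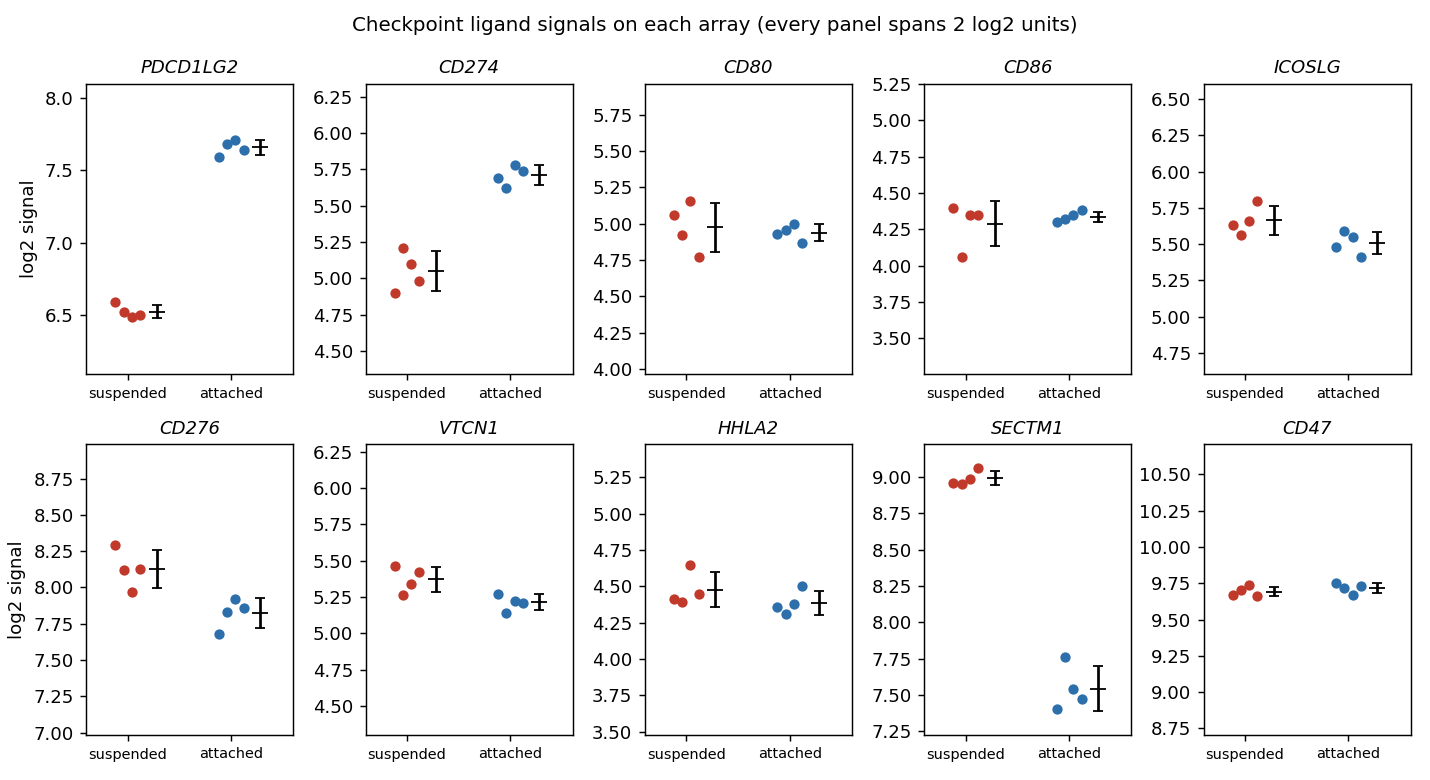
Log2 signal (y axis) of each ligand gene on the 4 suspended (red, left) and 4 attached (blue, right) arrays; bars are mean ± SD, and every panel spans the same range so that changes can be compared by eye. PDCD1LG2, CD274 and SECTM1 form clearly separate clouds, CD276 separates narrowly, and the other 6 overlap.

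Both ligands of PD-1 were lower in suspension. PDCD1LG2 encodes PD-L2, which binds PD-1 on T cells. Its signal was 6.59, 6.52, 6.49 and 6.50 in suspended cultures, against 7.59, 7.68, 7.71 and 7.64 in attached cultures. The groups lay a full log2 unit apart, with little spread inside either. The difference was −1.13 (SE 0.047, 95% interval −1.23 to −1.03, limma adjusted p = 5.10e-08), so the signal was 2.19-fold lower. Ranked by size among all 18417 genes, this was fall number 12.

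CD274 encodes PD-L1, the other PD-1 ligand, which also binds CD80. Its signal was 4.90, 5.21, 5.10 and 4.98 in suspended cultures, against 5.69, 5.62, 5.78 and 5.74 in attached cultures. Every suspended array was below every attached array, by at least 0.41. The mean fell by 0.66 on the log2 scale (SE 0.069, 95% interval −0.815 to −0.51, limma adjusted p = 4.92e-05), or 1.58-fold. The suspended mean of 5.05 lies under the low-signal mark of 5.28.

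The falls of the PD-1 ligands were also set against each other. Within each array, PDCD1LG2 minus CD274 was 1.69, 1.30, 1.40 and 1.52 in suspended cultures, against 1.90, 2.05, 1.93 and 1.90 in attached cultures. All 4 suspended values were below the attached ones, and the group means differed by −0.47. In suspended cultures CD274 averaged 5.05, under the low-signal mark, and PDCD1LG2 averaged 6.525, above it. Without a background measure, whether low signal made the fall of CD274 look smaller was not tested. The exact permutation test over the 70 arrangements of the arrays gave p = 0.0286 (two-sided), the smallest p it allows. Adjusted over the 2 ligand pairs compared in this way, the exact p was 0.0571. With 4 arrays a group, complete separation of this pair alone cannot give a smaller adjusted p, so the threshold was out of reach and the adjusted p does not show that the falls were alike.

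CD274 and PDCD1LG2 lie next to each other among the protein-coding genes of chromosome 9 in the RefSeq order. Around them, 11 further genes from JAK2 to RANBP6 were measured, of which 1 was called higher and 2 lower, with a median of −0.01. With 20.6% of all genes called, these counts are near the background and are no result about the locus. RIC1, the next of them after PDCD1LG2, differed by −0.14 (SE 0.044, limma adjusted p = 0.0425). Its call was kept in only 1 of the 8 refits that leave out 1 array, without suspended replicate 3 (−0.16 to −0.12 over the 8), which left 1 neighbour called lower in most of them. RIC1 also lost its call after quantile normalization, with array weights and with the replicate number as a block. ERMP1, which follows it, fell by 0.21 (SE 0.053, limma adjusted p = 0.0148). BRD10, also known as KIAA2026, rose by 0.21 (SE 0.050, limma adjusted p = 0.0119), a call lost when arrays were centred on their medians. PLGRKT, on the other side of CD274, differed by −0.105 (adjusted p = 0.14), and JAK2, a kinase of the interferon gamma receptor, by 0.07 (adjusted p = 0.537). The 11 differences ran from −0.21 to 0.21, all smaller than that of CD274.

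**Figure D2:**
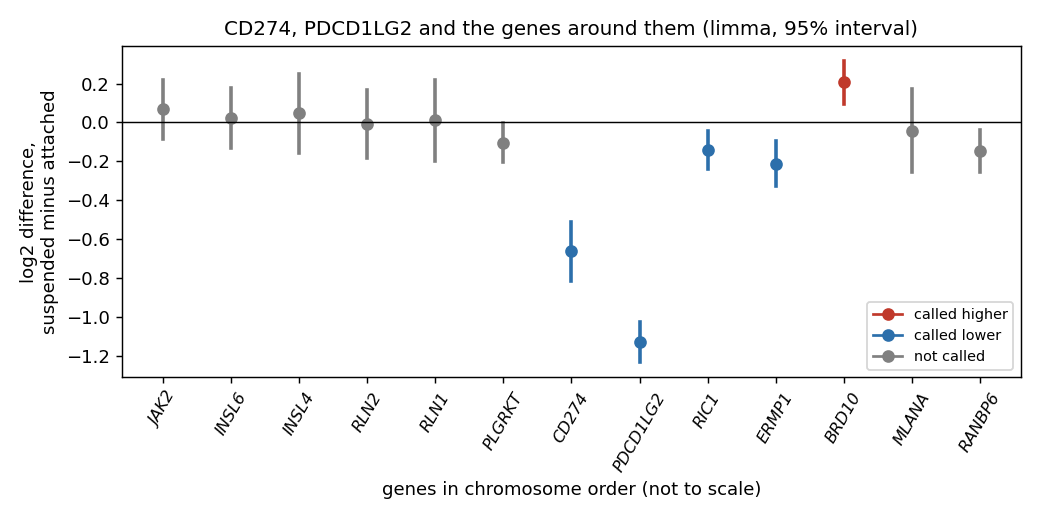
Log2 difference, suspended minus attached, with its 95% limma interval, for the measured genes around CD274 and PDCD1LG2, placed in chromosome order and not to scale. CD274 (−0.66) and PDCD1LG2 (−1.13) sit well below their neighbours, which lie between −0.21 and 0.21.

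The CD274 promoter is shown because interferon gamma signalling, described next, acts on it through factors that include IRF1. The sequence is from RefSeq (GRCh38.p14, chr9:5450292-5450541, plus strand) and holds the 250 bases before the annotated start, with motif matches in capitals. Motifs searched on both strands were TTCNNNGAA (the gamma-activated site), the interferon regulatory factor motif (GAAA repeated after a spacer of any 2 bases), TGACTCA (AP-1), GGAATG (TEAD) and GCGTG (the aryl hydrocarbon receptor).
CD274: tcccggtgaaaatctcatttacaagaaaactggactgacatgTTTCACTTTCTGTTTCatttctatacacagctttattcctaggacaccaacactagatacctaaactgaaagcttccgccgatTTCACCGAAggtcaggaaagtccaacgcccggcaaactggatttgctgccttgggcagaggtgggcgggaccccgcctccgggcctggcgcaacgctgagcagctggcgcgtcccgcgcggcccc
The first run of capitals is 2 overlapping matches to the interferon regulatory factor motif on the minus strand, between 208 and 193 bases before the start, and the second is TTCACCGAA, between 125 and 117 bases before it. Of 35116 windows of this length, 3.02% held that motif and 6.57% TTCNNNGAA. Among the 9 ligand genes with a window in the table (13 windows in all), CD274 was the only one with a match to either. PDCD1LG2 is the ligand gene without a window, so its promoter was not searched. These matches are letters in a sequence and do not show binding.

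Known regulators of PD-L1, at the level of its gene or its protein, moved in both directions. Of 24 measured, 5 rose and 5 fell, against 10.4% and 10.2% of all genes, with a median of 0.06. Of the 24, 0 had a low mean signal over the 8 arrays. With low-signal genes left out of the fit, 6 rose and 5 fell, against 14.7% and 14.6% of the genes kept. From the median signal up, the shares were 19.7% and 22.3%, so these counts are no result about the regulators. Both chains of the interferon gamma receptor rose. IFNGR1 measured 8.38, 8.57, 8.55 and 8.53 in suspended cultures, against 7.78, 7.84, 7.87 and 7.90 in attached cultures. The groups did not overlap, and the difference was 0.66 (SE 0.054, limma adjusted p = 7.48e-06), while IFNGR2 rose by 0.23 (SE 0.043, limma adjusted p = 0.0028). STAT3, a transcription factor downstream of cytokine receptors, rose by 0.31 (adjusted p = 0.000386), and GSK3B, a kinase that marks unglycosylated PD-L1 for degradation, by 0.23 (adjusted p = 0.00368). IRF1, which activates the CD274 promoter, rose by 0.41 with overlapping groups (SE 0.105, limma adjusted p = 0.0162), and this call was lost in 2 of the 8 refits, without suspended replicate 1 or attached replicate 1 (0.35 to 0.52 over the 8).

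Among the falls, B4GALT1, a galactosyltransferase of protein glycosylation, measured 9.21, 9.30, 9.35 and 9.33 in suspended cultures, against 9.87, 9.89, 9.94 and 9.94 in attached cultures. The groups did not overlap (difference −0.62, SE 0.048, limma adjusted p = 4.97e-06). EGFR, whose signalling is known to stabilise PD-L1, fell by 0.45 (SE 0.062, limma adjusted p = 0.000339). The transcription factor genes MYC and JUN fell by 0.40 and 0.32 (adjusted p = 0.000916 and 0.000815). NFKB1 differed by −0.25 (adjusted p = 0.0463), a call kept in only 1 of 8 refits (without suspended replicate 2; −0.33 to −0.19 over the 8) and lost with the replicate number as a block. CMTM6, which protects PD-L1 at the cell surface, averaged 8.06 suspended and 7.99 attached and was not called (0.065, 95% interval −0.025 to 0.16).

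Of 21 measured targets of interferon gamma, 7 rose and 1 fell, against 10.4% and 10.2% of all genes, with a median of 0.09 against 0.02 over all genes. The rises numbered 5 to 8 with 1 array left out and 6 to 7 under the other settings. They include IRF1, already counted among the regulators above, and IDO1. The IDO1 signal was low (means of 4.64 suspended and 4.43 attached), and its call was kept in 5 of 8 refits and lost after median centring. ICAM1, an adhesion molecule also known as a target of NF-kB, measured 7.40, 7.46, 7.49 and 7.74 in suspended cultures, against 6.98, 7.15, 6.93 and 6.93 in attached cultures. The groups did not overlap (difference 0.53, SE 0.078, limma adjusted p = 0.000557). WARS1, a tryptophan tRNA ligase, rose by 0.31 (adjusted p = 0.00171), and TAPBP, which loads peptides onto MHC class I, by 0.29 (adjusted p = 0.00229). TAP2, a chain of the peptide transporter, fell by 0.295 (SE 0.050, limma adjusted p = 0.00152). The chemokine targets CXCL9, CXCL10 and CXCL11 had mean signals of 3.81 to 4.22 suspended and 3.78 to 4.18 attached, under the low-signal mark, and were not called. GBP1, CD74 and the classical MHC class I genes are not analysed here.

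SECTM1 showed the largest change of the 10 ligands. Its signal was 8.96, 8.95, 8.99 and 9.06 in suspended cultures, against 7.40, 7.76, 7.54 and 7.47 in attached cultures. Suspended arrays agreed within 0.11, and the closest attached array, replicate 2, was still 1.19 lower. The difference was 1.45 (SE 0.071, 95% interval 1.29 to 1.61, limma adjusted p = 1.48e-07), a 2.73-fold higher signal. CD7, its receptor on lymphocytes, is also its neighbour on chromosome 17 in the RefSeq order. The CD7 signal averaged 7.93 suspended and 7.78 attached and was not called (0.14, 95% interval 0.02 to 0.26, adjusted p = 0.089).

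The SECTM1 window is shown beside that of CD274 because the pair moved in opposite directions. It is the RefSeq sequence of the 250 bases before the start, printed along the gene (GRCh38.p14, chr17:82333767-82334016, minus strand), with the same motifs in capitals.
SECTM1: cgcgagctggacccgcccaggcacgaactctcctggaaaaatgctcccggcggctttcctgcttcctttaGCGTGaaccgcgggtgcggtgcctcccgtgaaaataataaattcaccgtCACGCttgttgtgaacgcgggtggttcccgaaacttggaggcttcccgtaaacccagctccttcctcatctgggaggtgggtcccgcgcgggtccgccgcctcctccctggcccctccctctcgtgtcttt
Its capitals are 2 matches to GCGTG, the core bound by the aryl hydrocarbon receptor, one on each strand. That core is common and occurs in 32.2% of all windows, and in 4 of the 9 ligand genes. Neither TTCNNNGAA nor the interferon regulatory factor motif matched in this window. Whether motifs go with the direction of change was not tested, and PDCD1LG2, the ligand that fell most, has no window. The share of G and C was 62.0% in SECTM1 and 54.8% in CD274, against a median of 58.0% over all windows.

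CD276 encodes B7-H3, a B7 family protein found on many solid tumours, whose receptor on T cells is not settled. Its signal was 8.29, 8.12, 7.97 and 8.13 in suspended cultures, against 7.68, 7.83, 7.92 and 7.86 in attached cultures. The groups did not overlap, but suspended replicate 3 exceeded attached replicate 3 by only 0.05. The difference was 0.31 (SE 0.073, 95% interval 0.15 to 0.47, limma adjusted p = 0.0110), or 1.24-fold. Of the 4 called ligands this was the smallest change.

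VTCN1 encodes B7-H4, an inhibitory member of the family. Its signal was 5.46, 5.26, 5.34 and 5.42 in suspended cultures, against 5.27, 5.14, 5.22 and 5.21 in attached cultures. The ranges overlapped narrowly, and the difference of 0.16 (SE 0.055, 95% interval 0.04 to 0.28) did not pass (unadjusted p = 0.0155, limma adjusted p = 0.0677). It passed in 1 of 8 refits, without suspended replicate 2 (limma adjusted p = 0.0310). Of 7 other settings it passed in 1, when genes of low mean signal were left out (adjusted p = 0.0475). After median centring the difference was 0.11 (adjusted p = 0.185). Its mean over the 8 arrays, 5.292, was only just above the low-signal mark of 5.28, and its attached mean of 5.21 was under it. HHLA2, whose protein binds TMIGD2 and KIR3DL3, was low in every culture, at 4.41, 4.39, 4.65 and 4.45 suspended and 4.36, 4.31, 4.38 and 4.50 attached. These ranges overlapped, and the difference was 0.09 (95% interval −0.06 to 0.24, adjusted p = 0.387).

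**Figure D3:**
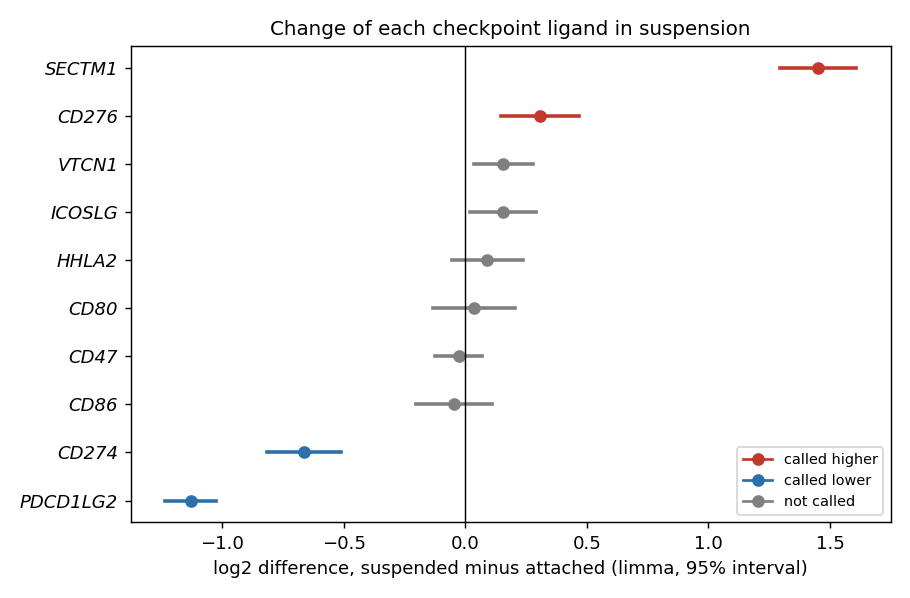
Log2 difference, suspended minus attached, of each ligand gene with its 95% limma interval; red and blue mark genes called higher and lower, grey those not called. SECTM1 (1.45) and CD276 (0.31) lie above 0, CD274 (−0.66) and PDCD1LG2 (−1.13) below, and the intervals of HHLA2, CD80, CD86 and CD47 include 0.

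The ligands of CD28 and CTLA4 did not pass the test. CD80 and CD86 are known mainly from antigen-presenting cells, where they give T cells their second signal. CD80 measured 5.06, 4.92, 5.16 and 4.77 in suspended cultures, against 4.93, 4.96, 5.0 and 4.87 in attached cultures. CD86 measured 4.40, 4.06, 4.35 and 4.35 in suspended cultures, against 4.30, 4.32, 4.35 and 4.38 in attached cultures. Means of both genes were under the low-signal mark of 5.28 in both groups, and the groups overlapped. The differences were 0.04 for CD80 (95% interval −0.13 to 0.20, limma adjusted p = 0.786) and −0.05 for CD86 (95% interval −0.20 to 0.11, adjusted p = 0.701). CD80 minus CD86 averaged 0.69 ± 0.20 suspended and 0.61 ± 0.08 attached (SD, n = 4 each), a difference of 0.08 (exact permutation test, two-sided p = 0.514, also 0.514 adjusted over 2 pairs).

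ICOSLG encodes the ligand of ICOS, a receptor of activated T cells. Its signal was 5.63, 5.56, 5.66 and 5.80 in suspended cultures, against 5.48, 5.59, 5.55 and 5.41 in attached cultures. In 3 suspended arrays the signal was above all attached ones, and suspended replicate 2 fell inside the attached range. The difference of 0.15 (SE 0.062, 95% interval 0.02 to 0.29) was not called (unadjusted p = 0.0291, limma adjusted p = 0.107). The human genome holds another, closely similar copy of this gene on chromosome 21, so the probes may read both.

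CD47, the ligand of SIRP alpha, did not pass the test and had a narrow interval. Its signal was 9.67, 9.70, 9.74 and 9.66 in suspended cultures, against 9.75, 9.72, 9.67 and 9.73 in attached cultures. The groups overlapped, and all 8 arrays lay within 0.09 of each other. The difference was −0.03 (SE 0.044, 95% interval −0.12 to 0.07, limma adjusted p = 0.724). QPCTL, the enzyme that modifies the amino end of CD47 for SIRP alpha binding, averaged 8.06 suspended and 8.06 attached (95% interval −0.16 to 0.15), and SIRPA itself 6.96 suspended and 6.94 attached (adjusted p = 0.867).

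Of 10 genes on a list of CD47 partners and engulfment signals, 4 rose and 3 fell, against 10.4% and 10.2% of all genes. Of the 10, 0 had a low mean signal over the 8 arrays. With only genes from the median signal up in the fit, the counts were again 4 and 3, against 19.7% and 22.3%. THBS1, the secreted thrombospondin that binds CD47, measured 9.89, 9.92, 9.98 and 10.00 in suspended cultures, against 10.31, 10.44, 10.51 and 10.36 in attached cultures. The groups did not overlap (difference −0.46, SE 0.055, limma adjusted p = 0.000133). STC1, a secreted glycoprotein known to retain the eat-me signal calreticulin inside cells, measured 10.62, 10.72, 10.58 and 10.68 in suspended cultures, against 9.11, 9.25, 9.22 and 9.27 in attached cultures. It rose by 1.44 with a wide gap between the groups (SE 0.054, limma adjusted p = 2.76e-08). LRP1, the receptor through which calreticulin is read, rose by 0.61 (SE 0.050, limma adjusted p = 7.48e-06), and MFGE8, a bridge between phosphatidylserine and phagocytes, by 0.42 (SE 0.045, limma adjusted p = 5.81e-05). AXL, a receptor kinase for GAS6, measured 8.69, 8.68, 8.72 and 8.79 in suspended cultures, against 9.71, 9.75, 9.81 and 9.80 in attached cultures. It fell by 1.04, again without overlap (SE 0.048, limma adjusted p = 8.46e-08). CALR, which encodes calreticulin, averaged 10.37 suspended and 10.36 attached and was not called.

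Of 8 measured receptors of the ligands, which are mainly lymphocyte genes, 0 rose and 1 fell by limma, against 10.4% and 10.2% of all genes, and 3 of the 8 had an unadjusted p under 0.05. The fall was in RGMB, a membrane-anchored co-receptor of bone morphogenetic proteins that also binds PD-L2. RGMB measured 8.03, 8.02, 8.06 and 8.10 in suspended cultures, against 8.35, 8.39, 8.46 and 8.48 in attached cultures. Its suspended arrays were all below the attached ones (difference −0.36, SE 0.048, limma adjusted p = 0.000257). TMIGD2, a receptor of HHLA2, differed by 0.195 (adjusted p = 0.0692), and both it and CD7 were called higher without suspended replicate 2. CTLA4 averaged 4.91 suspended and 4.92 attached, CD28 4.37 suspended and 4.45 attached, and ICOS 3.76 suspended and 3.78 attached, all under the low-signal mark and not called. Above the mark, and also not called, were CD7 (7.93 suspended, 7.78 attached), SIRPG (6.74 suspended, 6.63 attached) and TMIGD2 (6.47 suspended, 6.27 attached). A signal above the mark does not by itself show expression. PDCD1, which encodes PD-1, and KIR3DL3 are not analysed here.

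Of 25 further checkpoint and costimulatory ligands measured, 6 fell and 1 rose, against 10.2% and 10.4% of all genes, with a median of −0.04. Ligands read by NK cells and T cells as stress signals through NKG2D were among the falls. MICA measured 8.25, 8.18, 8.15 and 8.03 in suspended cultures, against 8.65, 8.77, 8.72 and 8.65 in attached cultures. MICB measured 8.17, 8.24, 8.14 and 8.10 in suspended cultures, against 8.49, 8.61, 8.62 and 8.52 in attached cultures. Neither gene's groups overlapped, and the differences were −0.55 for MICA (SE 0.057, limma adjusted p = 4.51e-05) and −0.40 for MICB (SE 0.052, limma adjusted p = 0.000227). These genes are close relatives and their probes may share targets, so their separate values are uncertain. ULBP3, another ligand of NKG2D, fell by 0.49 (adjusted p = 0.000819), whereas ULBP1 (−0.06) and ULBP2 (−0.04) were not called.

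NCR3LG1 encodes B7-H6, the ligand of the NK cell receptor NKp30. It averaged 6.68 ± 0.05 suspended and 7.16 ± 0.07 attached (SD, n = 4 each), a fall of 0.49 (SE 0.052, limma adjusted p = 5.70e-05). PVR, the poliovirus receptor read by TIGIT and CD226, averaged 8.34 ± 0.11 suspended and 8.86 ± 0.03 attached, a fall of 0.52 (SE 0.058, limma adjusted p = 7.24e-05). CD70, the ligand of CD27, fell by 0.33 (adjusted p = 0.0068). LGALS3, a galectin that can bind LAG3, was the single rise (0.51, SE 0.067, limma adjusted p = 0.000256), to which CEACAM1 was added when suspended replicate 2 was left out. NECTIN2 (0.11), VSIR (−0.05) and TNFRSF14 (−0.03) were not called. HLA-E and HLA-G are not analysed here. In the butyrophilin family, whose members resemble the B7 proteins, 0 of 10 measured genes were called by limma in either direction, against 20.6% of all genes, and 1 of the 10 had an unadjusted p under 0.05. Their differences ran from −0.02 to 0.18 with a median of 0.06.

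**Figure D4:**
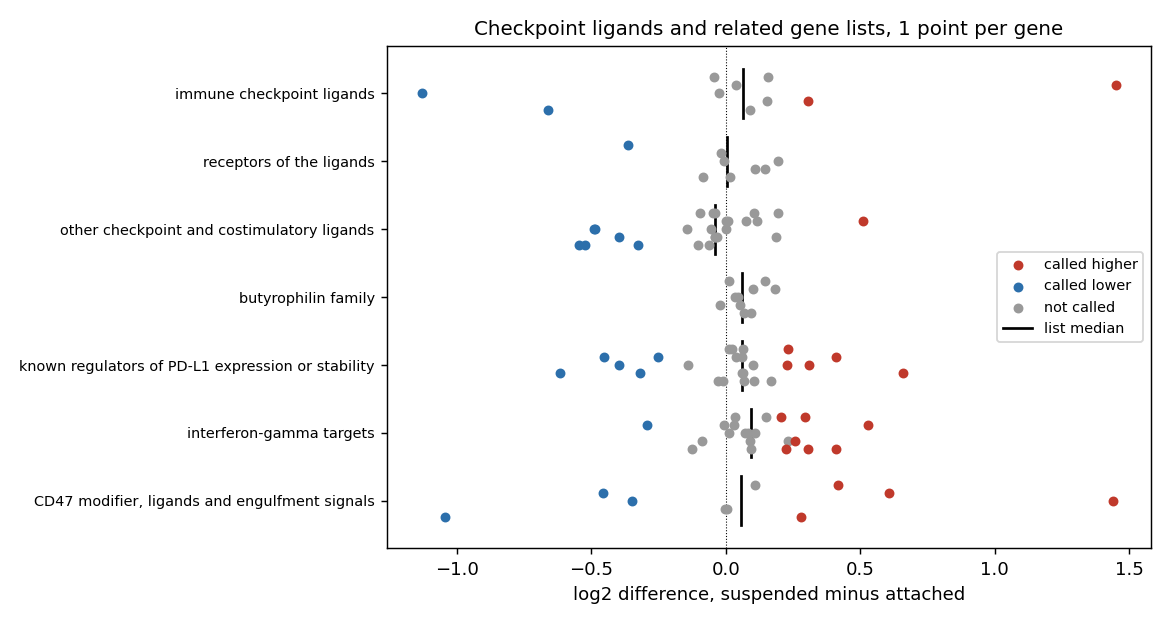
Log2 difference, suspended minus attached, for each measured gene of 7 lists (1 point per gene; vertical position within a row has no meaning), with genes called higher in red, lower in blue and not called in grey, and the list median as a black bar. Medians lie between −0.04 and 0.09, and called genes of the other checkpoint ligands lie mostly on the lower side, those of interferon gamma mostly on the higher side.

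Some genes followed PDCD1LG2 and SECTM1, the ligands with changes of at least 2-fold, closely across the 8 arrays. Over all 18417 genes, the highest Pearson correlations with PDCD1LG2 were those of STAC (r = 0.999), NCEH1 (r = 0.998) and THY1 (r = 0.998). STAC, an adaptor protein gene, differed by −0.58, NCEH1, a cholesteryl ester hydrolase gene, by −1.72, and THY1, a surface glycoprotein gene, by −1.135. For SECTM1 they were STAT3 (r = 0.999), LURAP1L (r = 0.998) and PHLDA1 (r = 0.997), which differed by 0.31, 0.85 and 0.63. With 2 separate groups of 4 arrays each r follows mostly the difference between groups, and the genes share the same hybridisations, so these values describe a shared pattern only.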

How the data were processed

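RNA from 4 suspended and 4 attached BT549 cultures was measured on whole-transcript arrays. Per the labels' protocols, 1 µg of TRIzol-extracted total RNA was biotin-labelled with a kit sold for small RNA; how it served these arrays is not stated in what was used here. The authors deposited 1 table of 33297 probe sets as log2 signals, a scale inferred from the size of the values. Partek appears in the submitters' processing notes, but its version, the background correction and the normalization do not appear in the sources used here, and nothing was renormalized. No scanner files were used here, so no background correction was tried.

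Probe sets with 1 gene symbol in the platform annotation (19460, of which 19429 matched RefSeq) were kept, and the brightest stood for its gene, which left 18417 genes. Linear models were fitted per gene (limma 3.58.1 under R 4.3.3, empirical Bayes, two-sided) with Benjamini-Hochberg adjustment over all genes, after a test on simulated data. Intervals are unadjusted 95% limma intervals, and SD is over 4 arrays. Pairs of genes were compared by exact permutation in Python 3.11.15. P-values speak to these cultures of 1 line. Alternatives were median centring, quantile normalization, filters on low signal, the mean of probe sets, trended robust variance, array weights, the replicate number as a block, and each array left out.

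The ligands and gene lists were chosen with earlier results of these data known. Genes named are the ligands, up to 4 called genes per list by lowest adjusted p (all where 5 or fewer were called), PDCD1, CTLA4, CD28, SIRPA and THBS1, and the 3 genes most correlated with each ligand changed at least 2-fold. Further genes of the lists were named after their values were seen.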

Additional observations from a re-analysis of the deposited data

Results flagged for a closer look

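CD86 in suspended replicate 2, at 4.06, stood far below the other 3 suspended arrays (4.35 to 4.40); its gap was 0.849 of the group's range, above Dixon's critical value for 4 samples. It was 1 of 20 groups of 4 arrays examined, and chance flags about 1 in 20. Without this array CD86 differed by 0.03 in place of −0.05, and it was not called either way.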

How the results depend on the processing

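PDCD1LG2, CD274, CD276 and SECTM1 kept direction and call under every alternative in which they were tested. PDCD1LG2 ranged from −1.18 to −1.11, CD274 from −0.72 to −0.61, CD276 from 0.25 to 0.36 and SECTM1 from 1.40 to 1.52. CD274 was not tested when only genes above the median signal were kept, which left 1 ligand called lower. Ligands called higher numbered 2 to 3, the third being VTCN1. The whole table gave 3022 to 4191 calls over the 8 other settings and 2934 to 3752 with 1 array left out, against 3787. Rises made up 50.4% of calls as deposited and 35.2% after median centring; the median over all genes stayed within −0.02 to 0.03. With the replicate number as a block 3022 genes were called and no ligand changed its call, although CD276 passed only narrowly (limma adjusted p = 0.047). Same-numbered arrays had deviations correlated at 0.04, −0.20, −0.02 and −0.17, so the numbers were not taken to pair the cultures. PDCD1LG2 minus CD274 ranged from −0.54 to −0.41 and CD80 minus CD86 from 0.02 to 0.17 over their alternatives, with adjusted exact p from 0.0571 to 0.250 and from 0.0571 to 0.943; within replicate blocks no p can fall under 0.125. In the other lists, counts of calls moved by at most 2 genes. Low signals of CD80, CD86 and HHLA2 limit what a change in them could show. The same limit holds for CD274, low in suspended cultures, and VTCN1, low in attached cultures.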
